A study of Mus musculus with 2 samples.

Results

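The respiratory chain genes were 98 of the 32285 genes listed for each library, chosen by symbol, with no threshold on a measured value. They comprised 85 nuclear genes, with symbols that begin with Ndufa, Ndufb, Ndufc, Ndufs, Ndufv, Uqcr, Atp5 or Cox4 to Cox8 or that equal Sdha, Sdhb, Sdhc or Sdhd, and all 13 genes of the mitochondrial genome that carry the prefix mt-. Ndufaf assembly factors and pseudogenes were left out. The nuclear genes lie on 19 chromosomes and fall into 38 genes of complex I, 4 of complex II, 8 of complex III, 18 of complex IV and 17 of complex V. The mitochondrial genes add 7, 1, 3 and 2 genes to complexes I, III, IV and V. All 98 are annotated as protein coding. Over all cells 93 had at least 100 UMIs in the 2 libraries together, and the 5 below that were Cox4i2, Cox7b2, Cox8b, Cox8c and Ndufa4l2. Ndufa4 is counted with complex I by its symbol, although the protein is known as a subunit of complex IV, and the complex III gene Cyc1 falls outside the symbols chosen.

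Transcripts were counted by droplet-based 3′ sequencing of viably frozen mouse spleen suspensions, from which cells had been sorted on CD45.2, CD11b and the viability dye DAPI. There was 1 high-B12 library and 1 low-B12 library. The study's title sets them in Tet2-deficient blood formation, and no genotype, strain, age, dose, duration or number of mice is given in the labels. With a single library per condition no test between conditions was possible, and an effect of B12 cannot be told apart from any other difference between the 2 libraries. Ratios therefore describe these libraries, and their 95% intervals cover counting error only.

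The respiratory chain passes electrons from NADH (complex I) and succinate (complex II) through ubiquinone to complex III, cytochrome c and complex IV, where oxygen is reduced. The proton gradient built by complexes I, III and IV drives ATP synthesis by complex V. Subunits of the chain come from both genomes, and nuclear and mitochondrial transcripts were summed apart. Neutrophils are known for a low mitochondrial mass and a reliance on glycolysis, and monocytes and resting lymphocytes for a larger use of oxidative phosphorylation.

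Cells were barcodes with at least 500 UMIs (unique molecular identifiers, each 1 counted transcript) and at least 200 genes, with no limit on mitochondrial transcripts. There were 7272 cells with a median of 3949.5 UMIs in the high-B12 library and 6813 cells with a median of 5470 UMIs in the low-B12 library, and 5 cell barcodes were shared. Cells with over 10% mitochondrial UMIs made up 7.21% of the high-B12 cells and 4.45% of the low-B12 cells. Classes were set by marker UMIs: the neutrophil class by an S100a8 plus S100a9 share of at least 5% of UMIs, the monocyte class by at least 2 UMIs of Csf1r, the NK (natural killer) class by at least 2 UMIs of Ncr1 and Klrb1c, and the B class by at least 3 UMIs of Cd79a and Cd79b. The neutrophil class held 2675 cells (36.8%) of the high-B12 library and 944 (13.9%) of the low-B12 library, the monocyte class 1198 and 1710, the NK class 898 and 999, and the B class 752 and 1947. B cells and NK cells are thus part of what the sort passed. Each class expressed its own markers. In the neutrophil class of both libraries 9 of 9 neutrophil markers reached 50 CPM (UMIs of a gene per 1000000 UMIs of its class). So did 8 of 8 NK and 8 of 8 B markers in theirs. In the monocyte class 7 of 9 monocyte markers did so in the high-B12 and 8 of 9 in the low-B12 library. The lists include the genes that set the classes, so these counts are partly fixed by the class limits. Neutrophil markers reached 50 CPM beyond their own class, with 9 of 9 in the monocytes of both libraries, 8 of 9 in high-B12 and 4 of 9 in low-B12 NK cells, and 7 of 9 in high-B12 and 5 of 9 in low-B12 B cells.

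A cell could meet the limits of several classes, and such cells held a larger share of mitochondrial UMIs in the neutrophil class than in the others. There 201 cells (7.51%) of the high-B12 library also met another class, and they held 25.9% of the class's mitochondrial UMIs. In the low-B12 library these were 130 cells (13.8%) with 46.4% of the mitochondrial UMIs. In the monocyte class 192 cells (16.0%) of the high-B12 and 259 cells (15.1%) of the low-B12 library met another class, with 15.6% and 25.3% of its mitochondrial UMIs. Results on neutrophils are therefore also given for cells that met exactly 1 class. Cells near a limit were common for monocytes, where 415 high-B12 and 413 low-B12 cells had exactly the 2 Csf1r UMIs needed and 964 and 657 cells had 1 fewer. Median UMIs per cell were alike between libraries within classes, at 3529 in high-B12 and 3098 in low-B12 neutrophils, and at 9192.5 and 8556 in the monocytes of the same 2 libraries.

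The promoters of nuclear respiratory chain genes are known for sites of nuclear respiratory factor 1 (NRF1), a homodimer that binds a palindrome of GCGC elements. A window from 250 bases before to 50 bases after the start (RefSeq, GRCm38.p6) was found for 69 of the 85 nuclear genes. The letters GCGC, any 2 bases and GCGC again, a palindrome searched on both strands, occurred in 18 of these 69 windows (26.1%), against 1737 of all 27025 windows (6.43%) and 1340 of the 9696 windows of genes measured here (13.8%). Restricted to windows within the members' middle range of GC content, the counts were 9 of 35 (25.7%) and 512 of 6417 (7.98%). Complex I had 9 of 33 windows with these letters, complex II 2 of 3, complex III 1 of 5, complex IV 1 of 13 and complex V 5 of 15. The 5-letter core of GABP sites, GGAAG, was no more frequent than elsewhere, at 69.6% of the members' windows and 71.1% of all. The window with the most matches in each complex is printed because it shows how the palindromes are spaced, with every base of a match in capitals. A match describes the letters only and says nothing of binding.
Ndufb4 (complex I, chr16:37654319-37654618, minus strand): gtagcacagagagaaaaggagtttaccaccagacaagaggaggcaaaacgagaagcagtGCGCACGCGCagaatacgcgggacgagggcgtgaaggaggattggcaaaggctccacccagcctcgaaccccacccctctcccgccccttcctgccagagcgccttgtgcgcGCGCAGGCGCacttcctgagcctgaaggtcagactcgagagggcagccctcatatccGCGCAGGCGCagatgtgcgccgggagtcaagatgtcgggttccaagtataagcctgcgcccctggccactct
Sdha (complex II, chr13:74350191-74350490, minus strand): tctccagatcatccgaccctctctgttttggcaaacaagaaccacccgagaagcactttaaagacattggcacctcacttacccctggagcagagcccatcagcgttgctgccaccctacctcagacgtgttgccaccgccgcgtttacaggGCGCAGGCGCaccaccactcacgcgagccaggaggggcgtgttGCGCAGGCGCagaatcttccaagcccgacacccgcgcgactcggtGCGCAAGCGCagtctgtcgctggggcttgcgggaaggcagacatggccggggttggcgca
Uqcrc1 (complex III, chr9:108936398-108936697, plus strand): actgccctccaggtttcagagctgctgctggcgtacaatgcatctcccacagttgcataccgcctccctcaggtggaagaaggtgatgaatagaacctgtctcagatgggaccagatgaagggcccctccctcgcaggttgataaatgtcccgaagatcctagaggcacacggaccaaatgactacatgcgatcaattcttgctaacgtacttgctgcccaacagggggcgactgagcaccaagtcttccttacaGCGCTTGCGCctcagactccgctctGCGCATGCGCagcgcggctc
Cox6a1 (complex IV, chr5:115348909-115349208, minus strand): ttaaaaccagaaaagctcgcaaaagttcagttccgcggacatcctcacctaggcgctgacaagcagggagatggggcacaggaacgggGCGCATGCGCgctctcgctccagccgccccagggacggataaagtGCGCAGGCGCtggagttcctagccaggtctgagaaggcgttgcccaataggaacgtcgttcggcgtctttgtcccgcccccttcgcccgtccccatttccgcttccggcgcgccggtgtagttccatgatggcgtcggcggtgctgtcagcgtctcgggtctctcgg
Atp5o (complex V, chr16:91931581-91931880, minus strand): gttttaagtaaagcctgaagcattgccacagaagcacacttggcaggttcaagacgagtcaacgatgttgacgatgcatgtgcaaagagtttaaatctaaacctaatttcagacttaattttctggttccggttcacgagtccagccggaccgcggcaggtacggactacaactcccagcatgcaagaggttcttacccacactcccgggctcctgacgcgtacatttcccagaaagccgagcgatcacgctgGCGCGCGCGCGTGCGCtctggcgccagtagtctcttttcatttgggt

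The windows of Ndufb4 and Sdha held 3 matches each, and those of Uqcrc1, Cox6a1 and Atp5o held 2, which overlap in Atp5o. Genes with and without the palindrome stood at similar neutrophil over monocyte ratios, described next, with median log2 values of -0.95 (n = 18) and -0.86 (n = 48).

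Neutrophils had the lowest level of respiratory chain transcripts of the 4 classes, and B cells the highest level of mitochondrial ones. The nuclear genes summed to 10532 CPM in high-B12 neutrophils and 10966 CPM in low-B12 neutrophils. The same sum was 19763 CPM in high-B12 and 17422 CPM in low-B12 NK cells, and 14729 and 13916 CPM in B cells of the high-B12 and low-B12 library. Monocytes had 19297 CPM in high-B12 cells and 17398 CPM in low-B12 cells. The order of classes therefore differed between nuclear and mitochondrial genes. The mitochondrial genes summed to 7013 and 9750 CPM in high-B12 and low-B12 neutrophils, 20157 and 19974 CPM in NK cells, 39939 and 40669 CPM in B cells, and 20856 and 21252 CPM in monocytes. For each mitochondrial UMI there were 1.502 nuclear member UMIs in high-B12 neutrophils and 1.12 in low-B12 neutrophils, but only 0.369 and 0.342 in B cells. NK cells and monocytes lay between, at 0.980 and 0.925 in the high-B12 library and at 0.872 and 0.819 in the low-B12 library. These are shares of a class's UMIs, so fewer transcripts and more of other transcripts cannot be told apart. S100a8 and S100a9 alone took 27.2% of UMIs in high-B12 and 22.8% in low-B12 neutrophils, against 2.67% and 1.496% in monocytes. Taken over UMIs other than mt-, S100a8 and S100a9, the nuclear sum was 14605 CPM in high-B12 and 14379 CPM in low-B12 neutrophils. In B cells it was 15574 and 14640 CPM on that scale, so neutrophils lay only slightly below B cells.

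**Figure D1:**
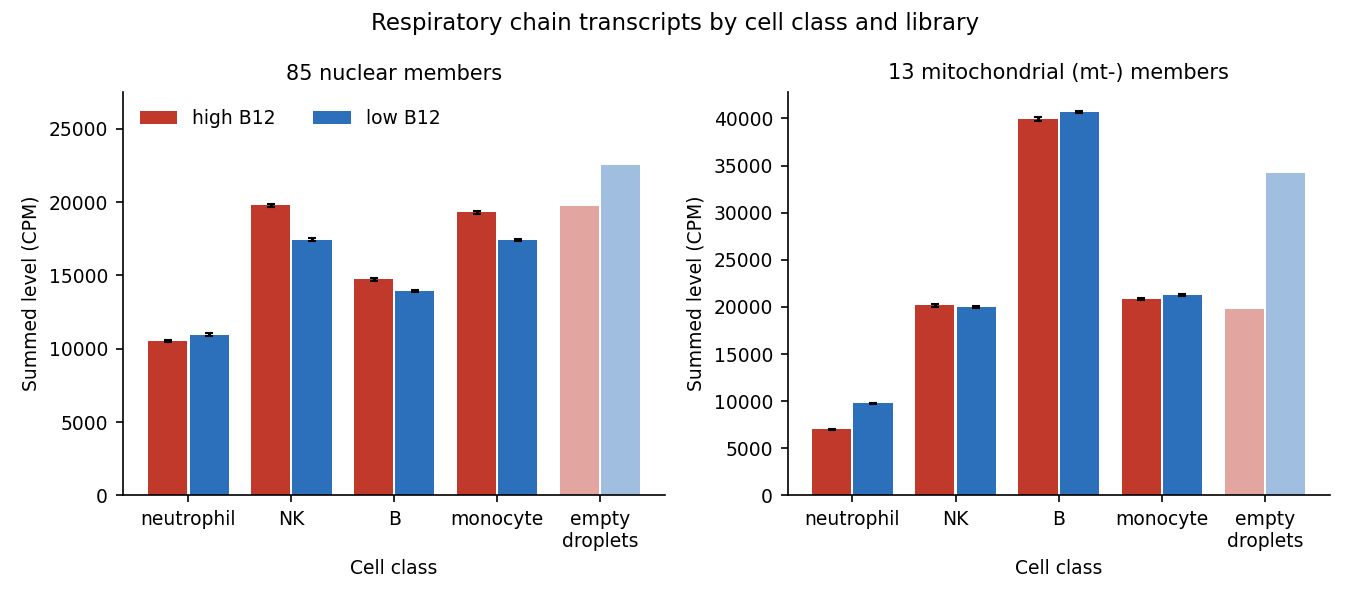
Summed CPM of the 85 nuclear and the 13 mitochondrial respiratory chain genes in each cell class and, in pale bars, in empty droplets, high-B12 library left of low-B12 library; each bar is 1 library, with its 95% counting interval for the classes. Of the 4 classes neutrophils have the lowest bars (10532 and 10966 CPM nuclear) and B cells the highest mitochondrial bars (39939 and 40669 CPM).

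Relative to monocytes, neutrophils had lower levels of all 5 complexes in both libraries. The nuclear sum was 0.546 of the monocyte sum in the high-B12 library and 0.630 in the low-B12 library, a mean log2 ratio of -0.77 ± 0.15 (SD, n = 2 libraries). The mitochondrial sum was 0.336 and 0.459 of that in monocytes, a mean log2 ratio of -1.35 ± 0.32. Of 78 nuclear genes with at least 100 UMIs over both classes in each comparison, 75 were lower by at least 1.2-fold in the high-B12 library, where 65.7% of all measured genes were, and 70 in the low-B12 library, where 67.9% were. All 13 mitochondrial genes were lower by that much in both. Since most genes had a lower CPM in neutrophils, the members were also set against the median gene. The median log2 ratio over all genes was -0.67 in high-B12 cells and -0.65 in low-B12 cells. The nuclear sum lay 0.20 log2 units below the median gene in the first of these libraries and 0.02 below it in the second, with 56 and 45 of 78 genes below. The mitochondrial sum lay 0.90 and 0.48 below, with 13 of 13 genes below in each. Counted per UMI of genes other than mt-, S100a8 and S100a9, the nuclear ratio was 0.721 and 0.797 and the mitochondrial ratio 0.444 and 0.580. In cells of exactly 1 class both lay lower, at 0.492 and 0.551 for nuclear and 0.272 and 0.357 for mitochondrial genes.

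Complex I, the NADH dehydrogenase, stood at 0.580 of the monocyte level in high-B12 cells and 0.675 in low-B12 cells. Ndufc2, an accessory subunit of the membrane arm (ENSMUSG00000030647, chr7:97400003-97407802 in GRCm38), had 49.9 CPM in neutrophils against 177 CPM in monocytes of the high-B12 library. In the low-B12 library it had 62.2 CPM against 169 CPM, which gave ratios of 0.281 and 0.367. Ndufb5, also of the membrane arm, had 51.6 against 175 CPM and 68.3 against 167 CPM in the same order. The core iron-sulfur subunit Ndufs8, in the arm that takes electrons to ubiquinone, had 34.7 against 115 CPM in the high-B12 library and 43.1 against 96.6 CPM in the low-B12 library. All 3 genes thus lay below the ratio of their complex in each library. The exceptions also lay in complex I. Ndufv3, a small subunit attached to the flavoprotein part (ENSMUSG00000024038, chr17:31520115-31531331), had 133 CPM in neutrophils against 122 CPM in monocytes of the high-B12 library and 138 against 104 CPM in the low-B12 library. Ndufb7, an accessory subunit on the intermembrane side, had 255 against 243 CPM and 249 against 201 CPM. These 2 of 78 nuclear genes were higher in neutrophils in both libraries and the other 76 were lower, a count taken after their values were seen.

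Complex II, succinate dehydrogenase, is also an enzyme of the citric acid cycle and has no mitochondrial gene. It stood at 0.524 of the monocyte level in high-B12 cells and 0.612 in low-B12 cells. Sdhb, the iron-sulfur subunit (chr4:140961203-140979193), had 52.0 CPM in neutrophils against 123 CPM in monocytes of the high-B12 library and 56.4 against 107 CPM in the low-B12 library. The membrane anchors Sdhc and Sdhd had ratios of 0.419 and 0.675 in the high-B12 and 0.497 and 0.751 in the low-B12 library. Sdha, the flavoprotein whose promoter is printed above, lay between them at 0.592 and 0.670. All 4 genes were below the monocyte level in both libraries, and the ratio was lower in the high-B12 library for each.

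Complex III, ubiquinol to cytochrome c oxidoreductase, had the lowest nuclear ratio of the 5 complexes, at 0.465 and 0.544. Uqcrfs1, the Rieske iron-sulfur protein (ENSMUSG00000038462, chr13:30540308-30545362), had 42.0 CPM in neutrophils against 148 CPM in monocytes of the high-B12 library and 45.5 against 130 CPM in the low-B12 library. Uqcrh, the hinge protein beside cytochrome c1, had ratios of 0.406 and 0.455, and the small subunit Uqcr11 0.447 and 0.531. Cyc1, cytochrome c1 itself, fell outside the symbols chosen and was at 0.466 and 0.564. Its electron acceptor cytochrome c, Cycs, had 66.1 CPM in neutrophils against 195 CPM in monocytes of the high-B12 library and 77.4 against 169 CPM in the low-B12 library.

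Complex IV, cytochrome c oxidase, stood at 0.571 and 0.655. Cox7a2l, a protein known for tying complexes III and IV into supercomplexes (ENSMUSG00000024248, chr17:83501918-83517330), had 98.1 CPM in neutrophils against 303 CPM in monocytes of the high-B12 library. In the low-B12 library it had 110 against 297 CPM, which gave ratios of 0.324 and 0.370. Its relative Cox7a2, the ubiquitous form of subunit 7a, was far closer to the monocyte level, at 260 against 320 CPM and 274 against 285 CPM. Cox7b had ratios of 0.400 and 0.503 and Cox4i1, the ubiquitous form of the regulatory subunit 4, ratios of 0.478 and 0.527. Cox8a, the ubiquitous form of subunit 8, was at 0.743 and 0.808. The complex IV subunits thus spread over a wide range of ratios within the same cells.

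Ndufa4 and its paralogue AA467197 (synonym Nmes1 in the RefSeq gene table), which is no member, lay on opposite sides of the monocyte level. Ndufa4 had 194 CPM in neutrophils against 370 CPM in monocytes of the high-B12 library, and 216 against 331 CPM in the low-B12 library. AA467197 had 238 CPM in neutrophils against 19.96 CPM in monocytes of the high-B12 library, and 213 against 12.3 CPM in the low-B12 library, ratios of 11.9 (10.4 to 13.7) and 17.3 (14.9 to 20.3). In cells of exactly 1 class it had 251 against 1.93 CPM and 245 against 1.96 CPM. Empty droplets held 85.2 CPM of AA467197 in the library with high B12 and 32.3 CPM in that with low B12. The pair was looked up after the values were seen.

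Complex V, the ATP synthase, stood at 0.518 and 0.595. Its 3 genes for the proton-translocating c ring, which encode the same mature protein, were all low. Atp5g1 (ENSMUSG00000006057, chr11:96068852-96075670) had 56.6 CPM in neutrophils against 217 CPM in monocytes of the high-B12 library and 72.1 against 194 CPM in the low-B12 library. Atp5g2 had 102 against 359 CPM and 138 against 367 CPM, and Atp5g3 had ratios of 0.428 and 0.527. Atp5a1, the alpha subunit of the catalytic head, had 80.2 against 252 CPM and 110 against 259 CPM. At the other end Atp5j, the coupling factor 6 of the stalk, had 237 against 286 CPM and 228 against 244 CPM.

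Mitochondrial genes were further below the monocyte level than the nuclear genes of the same complex. The ratio was 0.274 in high-B12 cells and 0.406 in low-B12 cells for the 7 complex I genes, 0.330 and 0.462 for mt-Cytb of complex III, 0.372 and 0.488 for the 3 complex IV genes, and 0.305 and 0.432 for the 2 complex V genes. All 78 nuclear and all 13 mitochondrial genes had a lower neutrophil over monocyte ratio in the high-B12 library than in the low-B12 library. How many of all measured genes moved the same way was not counted, so these counts have no background. The median log2 ratio over all genes was -0.67 with high B12 and -0.65 with low B12. As high-B12 over low-B12, the median gene lay at -0.20 in neutrophils and -0.10 in monocytes. The part of such a general shift in the members' lower ratios was not tested. The share of cells of several classes differed between the neutrophils of the 2 libraries, as given above. Its part in the members' lower ratios was not tested member by member. In cells of exactly 1 class the sums still had the lower ratio in the high-B12 library, as did 13 of 13 mitochondrial and 72 of 78 nuclear genes, while the other 6 nuclear genes had the higher ratio there.

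**Figure D2:**
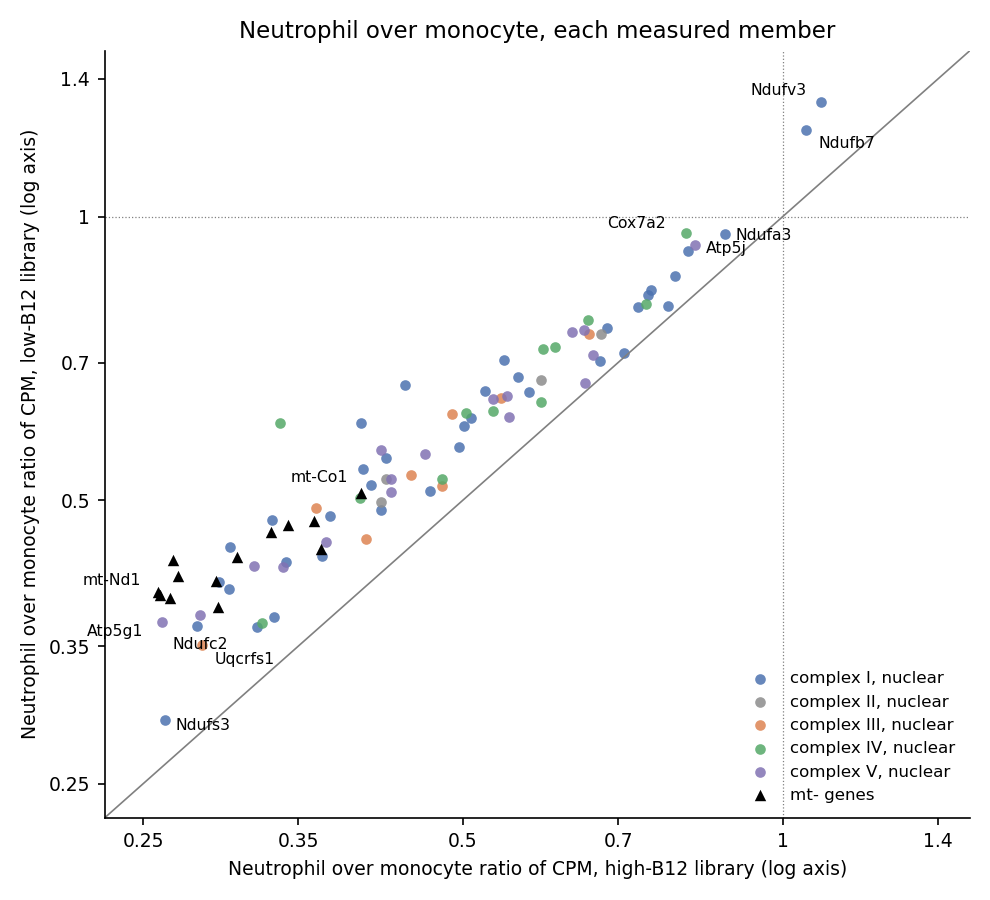
Neutrophil over monocyte ratio of CPM for each measured gene, in the high-B12 library (x, log axis) and the low-B12 library (y, log axis); points are nuclear genes coloured by complex, triangles mitochondrial genes, dotted lines a ratio of 1 and the solid line equal ratios. All 78 nuclear and 13 mitochondrial genes lie above the line of equal ratios, and Ndufv3 and Ndufb7 alone lie above 1 on both axes. How many of all measured genes would lie above that line was not counted.

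NK cells and B cells differed from monocytes in other ways. In NK cells the nuclear sum was 1.02 of that in monocytes in high-B12 cells and 1.00 in low-B12 cells, and the mitochondrial sum 0.967 and 0.940. Of the measured nuclear genes 13 were higher by at least 1.2-fold in the high-B12 library (41.4% of all measured genes) and 9 in the low-B12 library (42.6%), while 16 and 17 were lower (31.4% and 29.7% of all). In B cells the nuclear sum was 0.763 and 0.800 of that in monocytes, with 56 and 50 of 78 genes lower by at least 1.2-fold (36.1% and 32.4% of all). All 13 mitochondrial genes were higher by that much in B cells of both libraries (35.5% and 39.2% of all), and their sum was 1.92 and 1.91 times that in monocytes. The B class was the one in which the nuclear and mitochondrial sums lay on opposite sides of the monocyte level by the widest margin.

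Within neutrophils, the nuclear level per UMI other than mt-, S100a8 and S100a9 was higher in cells with a high calprotectin share (S100a8 plus S100a9). This held in both libraries, while the mitochondrial level on that scale was not higher. Cells of the neutrophil class alone were split by the calprotectin share into bins of 5 to 10%, 10 to 20%, 20 to 30%, 30 to 40% and 40% or more. Levels were taken as CPM over UMIs other than mt-, S100a8 and S100a9. That denominator leaves out the UMIs that set the bins, so it is a smaller part of all UMIs in the higher bins. Levels per all UMIs are not given by bin. On that scale the nuclear rise would be smaller and mitochondrial levels would be lower in the higher bins. Nuclear members had 9935, 10296, 11933, 17578 and 19496 CPM in these bins of the high-B12 library, and 10374, 9150, 13912, 17373 and 19733 CPM in those of the low-B12 library. On this scale the 2 bins of highest share approached the monocyte levels of 21027 and 18650 CPM in the same libraries, in cells of exactly 1 class. Mitochondrial genes had 9419, 7775, 7906, 9036 and 8165 CPM in the high-B12 bins, and 12083, 8770, 10543, 9760 and 8816 in the low-B12 bins, all far below the monocyte levels of 22571 and 21223 CPM. Depth moved with the bins: the median cell had 2541.5, 3001, 3730, 10716 and 12446 UMIs in the high-B12 and 2383, 2696, 3813, 10463 and 11647 UMIs in the low-B12 library. Its part in the nuclear levels was not tested. The bins held 512, 883, 433, 411 and 235 high-B12 and 253, 305, 82, 141 and 33 low-B12 cells, so the uppermost low-B12 bin rests on few cells. Granulocyte progenitor markers summed to 5.20, 307, 677, 186 and 26.8 CPM in the high-B12 bins and to 3065, 0, 616, 432 and 9.48 CPM in the low-B12 bins, with the largest sum in the lowest low-B12 bin. Monocyte markers summed to 178, 254, 539, 1189 and 1331 CPM in the high-B12 bins and to 338, 252, 976, 1375 and 1213 CPM in the low-B12 bins, so they were highest in the 2 bins with the highest nuclear levels. Most of this sum can come from 1 gene. In the whole neutrophil class, per all UMIs, 1 of the 9 markers held 474 of 636 CPM in the high-B12 library. In the low-B12 library 1 marker held 500 of 841 CPM. B markers were lowest in those 2 bins, at 62.3 and 47.1 CPM in the high-B12 library and 71.5 and 42.7 CPM in the low-B12 library. The part of these markers in the nuclear levels was not tested.

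**Figure D3:**
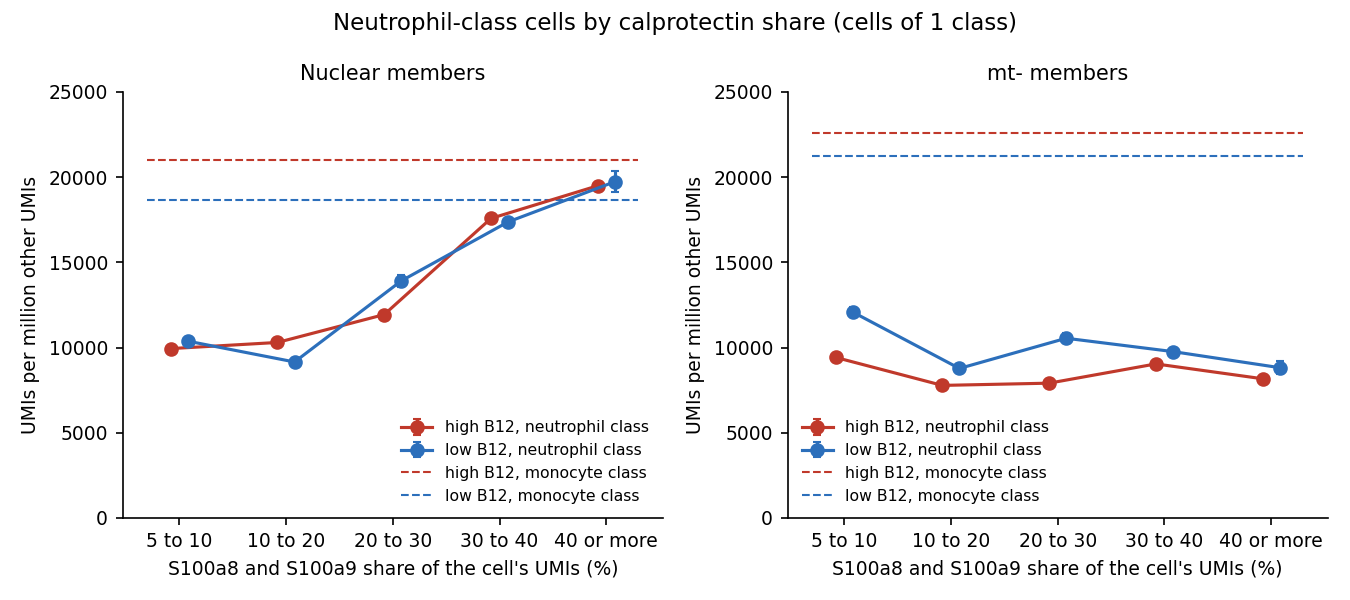
Nuclear and mitochondrial respiratory chain UMIs as CPM over UMIs other than mt-, S100a8 and S100a9 in cells of the neutrophil class alone, by bins of the S100a8 plus S100a9 share in percent, with 1 solid line and 95% counting intervals per library and dashed lines at the monocyte levels. Nuclear levels run from 9150 to 10374 in the 2 lowest bins and from 17373 to 19733 in the 2 highest, while mitochondrial levels stay between 7775 and 12083.

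Between the libraries, the sum that differed most was that of the mitochondrial genes in neutrophils. Their sum was 7013 CPM in high-B12 neutrophils against 9750 CPM in low-B12 neutrophils, a ratio of 0.719 (0.712 to 0.726). Of the 13 genes, 12 were lower by at least 1.2-fold, as were 41.9% of all genes measured in neutrophils, and mt-Nd6 was the exception. In the other classes the sum was at a ratio of 0.981 (0.976 to 0.987) in monocytes, 1.01 (1.00 to 1.02) in NK cells and 0.982 (0.977 to 0.987) in B cells, and its side of 1 changed with the processing in all of these classes. In neutrophils that met exactly 1 class the sum was 5991 CPM in high-B12 cells and 7404 CPM in low-B12 cells, a ratio of 0.809, with all 13 genes lower and 9 of them by at least 1.2-fold, as were 29.3% of all genes in these cells. B markers summed to 164 CPM in high-B12 and 477 CPM in low-B12 neutrophils, none at 0, monocyte markers to 636 and 841 CPM, and NK markers to 186 and 175 CPM. Granulocyte progenitor markers summed to 238 CPM in high-B12 and 495 CPM in low-B12 neutrophils. The part of these markers in the difference was not tested, beyond the value in cells of exactly 1 class, a choice that sets no limit on progenitor markers. Bin by bin of the calprotectin share the mitochondrial ratio was 0.780, 0.886, 0.750, 0.926 and 0.926, below 1 in all 5 bins. A low ratio in neutrophils was not particular to mitochondrial genes. The 82 ribosomal protein genes summed to 43607 CPM in high-B12 against 57797 CPM in low-B12 neutrophils, a ratio of 0.754 (0.751 to 0.758).

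The mitochondrial complex I genes had the lowest ratio, 0.657 (0.641 to 0.673), against 0.746 for the complex IV genes. mt-Nd1, a membrane subunit at the ubiquinone site (mitochondrial genome, bases 2751 to 3707), had 188 CPM in high-B12 against 321 CPM in low-B12 neutrophils, a ratio of 0.586. mt-Nd3 had 70.3 against 119 CPM and mt-Nd5, a proton-pumping subunit, 130 against 210 CPM. The other abundant subunits of this complex, mt-Nd2 and mt-Nd4, had 198 against 298 CPM and 420 against 596 CPM. mt-Nd4l had 118 against 170 CPM. mt-Nd6, the gene encoded on the opposite strand to the other 12, had 8.13 against 9.57 CPM, a ratio of 0.850 whose interval of 0.621 to 1.18 spans 1. mt-Nd1, mt-Nd3 and mt-Nd5 had the lowest ratios of the 13 genes, from 0.586 to 0.619. mt-Cytb, the mitochondrial subunit of complex III, had 459 against 669 CPM. mt-Co1, the catalytic subunit of complex IV (bases 5328 to 6872), had 1867 against 2433 CPM, a ratio of 0.768, and mt-Co2 and mt-Co3 had ratios of 0.721 and 0.738. Of the complex V genes mt-Atp6, the proton channel subunit, had 1226 against 1733 CPM and mt-Atp8 had 68.5 against 91.4 CPM. In cells of exactly 1 class mt-Nd1 was at 0.640, mt-Cytb at 0.800, mt-Atp6 at 0.785 and mt-Co1 at 0.859, so mt-Nd1 stayed below mt-Co1.

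The nuclear genes had a higher CPM in the high-B12 library in monocytes, NK cells and B cells. The ratio of sums was 1.11 (1.10 to 1.12) in monocytes, 1.13 (1.12 to 1.14) in NK cells and 1.06 (1.05 to 1.07) in B cells. The differences per gene were small and spread over many members. Above 1 were 72 of 78 measured genes in monocytes, 70 of 77 in NK cells and 58 of 77 in B cells. The share of all measured genes above 1 is not given here. The median of all genes, given below, lay under 1 in each of these classes, so at least as many genes lay below 1 as above it. Intervals lay wholly above 1 for 58, 49 and 30 genes in the same order. They cover counting error only and narrow with depth, and the share of all genes with such intervals was not taken. Few reached 1.2-fold, namely 6 of 78 in monocytes (8.98% of all measured genes did), 10 of 77 in NK cells (9.02%) and 3 of 77 in B cells (8.92%), and none was lower by that much, against 27.7%, 31.4% and 28.9% of all genes. The share higher by 1.2-fold was thus near the background in monocytes, somewhat above it in NK cells and below it in B cells, each on few genes. The median member stood at a log2 ratio of 0.16 in monocytes, 0.18 in NK cells and 0.09 in B cells, against -0.10, -0.12 and -0.12 for the median of all genes. Scaling by that median gave 39 of 78 genes higher by 1.2-fold in monocytes, 50 of 77 in NK cells and 18 of 77 in B cells, where the shares over all genes under the same scaling were 16%, 18.9% and 16.8%.

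By complex, the nuclear ratio in monocytes was 1.13 for complex I, 1.09 for complex II, 1.08 for complex III, 1.11 for complex IV and 1.10 for complex V. In NK cells the ratios were 1.12, 1.09, 1.09, 1.14 and 1.16 in the same order. In B cells they were 1.07, 1.04, 1.06, 1.03 and 1.07, and the interval of complex II, 0.974 to 1.11, spanned 1. All 5 complexes thus lay above 1 in each of these classes.

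In complex I of monocytes, the accessory subunit Ndufb7 had 243 CPM in high-B12 cells against 201 CPM in low-B12 cells, Ndufa3 288 against 239 CPM and Ndufc1 145 against 120 CPM, each at least 1.2-fold higher. In NK cells Ndufb2 had 113 against 88.5 CPM, Ndufb4 155 against 128 CPM and Ndufa7 274 against 228 CPM. In B cells Ndufa1 had 193 against 162 CPM, Ndufb4 118 against 102 CPM and Ndufa7 227 against 198 CPM. All of these are supernumerary subunits, which surround the catalytic core, as are 30 of the 37 measured nuclear genes of complex I. The largest ratio of all measured nuclear genes in B cells, 1.26, was that of the core subunit Ndufs3, which did not qualify for naming.

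In complex II, Sdhb had 123 CPM in high-B12 against 107 CPM in low-B12 monocytes and 111 against 96.3 CPM in NK cells. Sdha, its flavoprotein partner, had 60.1 against 65.8 CPM in monocytes and 67.8 against 73.9 CPM in NK cells, with intervals of the ratio that span 1. In complex III, Uqcrb, a ubiquinone-binding subunit, had 251 against 217 CPM in monocytes, 262 against 223 CPM in NK cells and 177 against 154 CPM in B cells. Uqcrq had 308 against 268 CPM, 253 against 214 CPM and 186 against 168 CPM in these classes. Uqcrfs1 had 148 against 130 CPM in monocytes, and Uqcr10, a small subunit of complex III, had 241 against 204 CPM in NK cells and 186 against 161 CPM in B cells. These genes of complex III were named for their large ratios and do not stand for its small subunits as a group. Uqcrh and Uqcr11 were not among those named in these classes.

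In complex IV, the nuclear subunit Cox5b had 412 CPM in high-B12 against 360 CPM in low-B12 monocytes, 455 against 381 CPM in NK cells and 306 against 277 CPM in B cells. Cox7b had 280 against 240 CPM and Cox8a 805 against 708 CPM in monocytes. In NK cells Cox7a2 had 416 against 334 CPM and Cox6c 650 against 536 CPM. B cells held the exception, Cox4i1, which had 465 CPM in high-B12 cells against 495 CPM in low-B12 cells, a ratio of 0.941 with an interval of 0.899 to 0.985. Cox6a1 had 141 against 129 CPM there.

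The same gene led complex V in all 3 classes. Atp5j2, subunit f of the membrane part (ENSMUSG00000038690, chr5:145183698-145192062), had 394 CPM in high-B12 against 328 CPM in low-B12 monocytes, a ratio with an interval of 1.15 to 1.25. In NK cells it had 485 against 358 CPM, a ratio of 1.36, and in B cells 307 against 253 CPM, a ratio of 1.22. In neutrophils, by contrast, it had 217 against 212 CPM. Atp5k, subunit e, which sits at the dimer contact of the enzyme, had 273 against 230 CPM in monocytes and 215 against 178 CPM in B cells. Atp5j had 286 against 244 CPM in monocytes and 226 against 192 CPM in B cells. In NK cells Atp5e, the epsilon subunit, had 1013 against 825 CPM and Atp5g1 230 against 192 CPM.

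Markers of other cells differed between the libraries in these classes too, and none of the neutrophil, B and monocyte markers was at 0. Neutrophil markers summed to 28894 CPM in high-B12 against 16275 CPM in low-B12 monocytes, to 21220.5 against 6471 CPM in NK cells and to 15554 against 9489 CPM in B cells. B markers summed to 339 against 1110 CPM in monocytes and to 209 against 1132 CPM in NK cells. Monocyte markers had 1019 against 1186 CPM in NK cells and 360 against 399 CPM in B cells. The nuclear ratio was as large in cells of exactly 1 class, at 1.13 in monocytes, 1.15 in NK cells and 1.08 in B cells. The part of transcripts from other cells in the nuclear ratios was not tested beyond these values.

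Gene length moved with these ratios. The median genomic span of the members measured in monocytes was 7.37 kb, against 24.7 kb for other measured genes. Among other genes of 1 to 5 kb, 61.4% were higher in the high-B12 library in monocytes, 68.1% in NK cells and 60.8% in B cells, while among those over 50 kb these shares were 15.1%, 13.1% and 19.6%. Of the members of 5 to 10 kb 28 of 30 were higher in monocytes, against 51.9% of the other genes of that span. The 82 ribosomal protein genes, short and abundant, had ratios of 1.02 in monocytes, 1.06 in NK cells and 1.09 in B cells, but 0.754 in neutrophils. The part of span in the members' ratios was not tested beyond these shares.

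In neutrophils the nuclear sum was at 0.960 (0.952 to 0.969), but at 1.01 in cells of exactly 1 class and at 1.10 when scaled by the median gene, so it has no settled direction. Of 78 measured genes 17 were lower by at least 1.2-fold, less than the 41.9% of all genes, and 0 were higher, against 5.48% of all genes. In cells of exactly 1 class 5 genes were lower by that much, against 29.3% of all genes. Among genes at 100 CPM or more in either library, the largest differences lay in complex V, where Atp5a1 had 80.2 CPM in high-B12 against 110 CPM in low-B12 neutrophils and Atp5g2 102 against 138 CPM, which in cells of exactly 1 class came to a ratio of 0.896. Atp5d, the delta subunit, had 91.0 against 105 CPM. In the other complexes the named ratios were nearer to 1, at 0.897 for Ndufa4, 0.899 for Ndufa6, 0.910 for Uqcr11, 0.916 for Uqcrb, 0.893 for Cox7a2l, 0.909 for Cox5a and 0.912 for Cox7c. Ndufa3 was the exception, with 254 against 230 CPM.

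**Figure D4:**
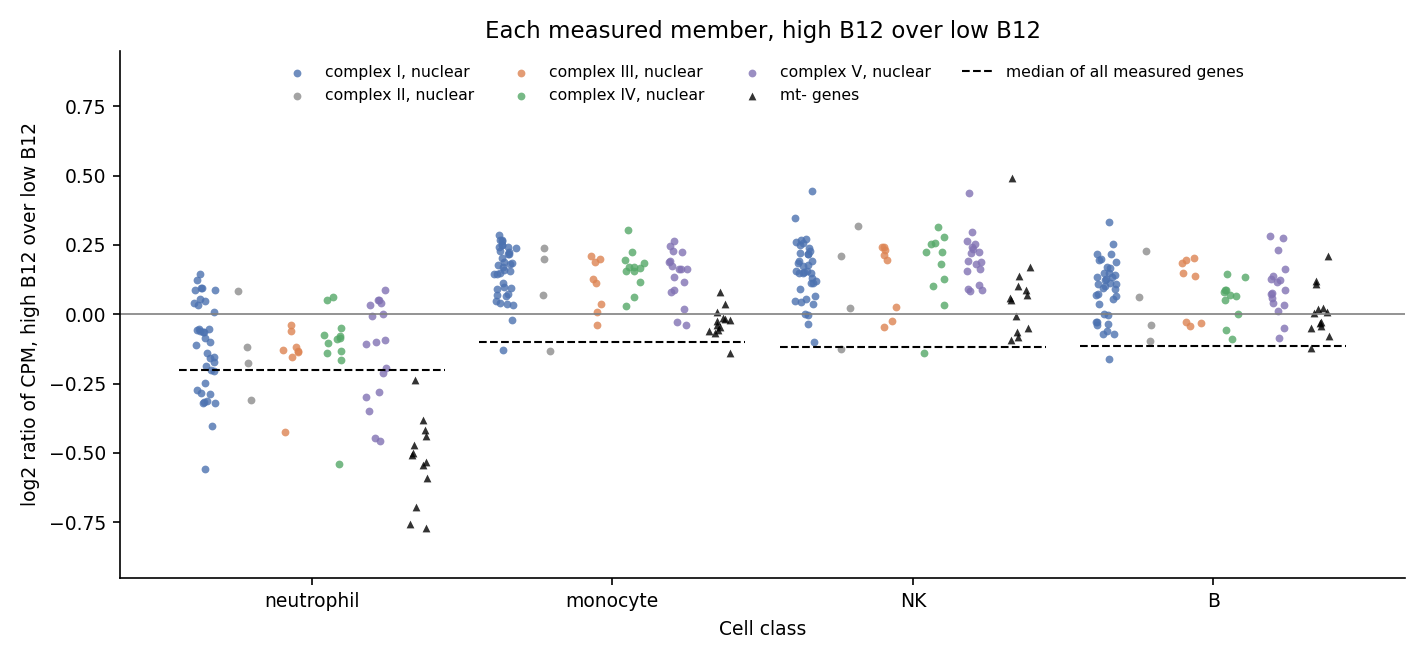
Log2 ratio of high-B12 to low-B12 CPM for each measured gene in the 4 cell classes; points are nuclear genes coloured by complex, triangles mitochondrial genes, and the dashed lines the median of all measured genes (-0.20 in neutrophils, -0.10 in monocytes, -0.12 in NK cells and -0.12 in B cells). All 13 mitochondrial genes lie below 0 in neutrophils, and 72 of 78, 70 of 77 and 58 of 77 nuclear genes lie above 0 in monocytes, NK cells and B cells.

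The side of 1 on which each sum lay was compared over 10 other ways to choose cells and to scale counts. The neutrophil mitochondrial ratio stayed between 0.714 and 0.844 in all 10 of them. The nuclear ratio stayed above 1 in all 10 for monocytes (1.05 to 1.19), NK cells (1.07 to 1.23) and B cells (1.04 to 1.15). In neutrophils it ran from 0.960 to 1.10. The mitochondrial ratio ran from 0.956 to 1.17 in monocytes, from 1.00 to 1.15 in NK cells and from 0.965 to 1.06 in B cells.

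**Figure D5:**
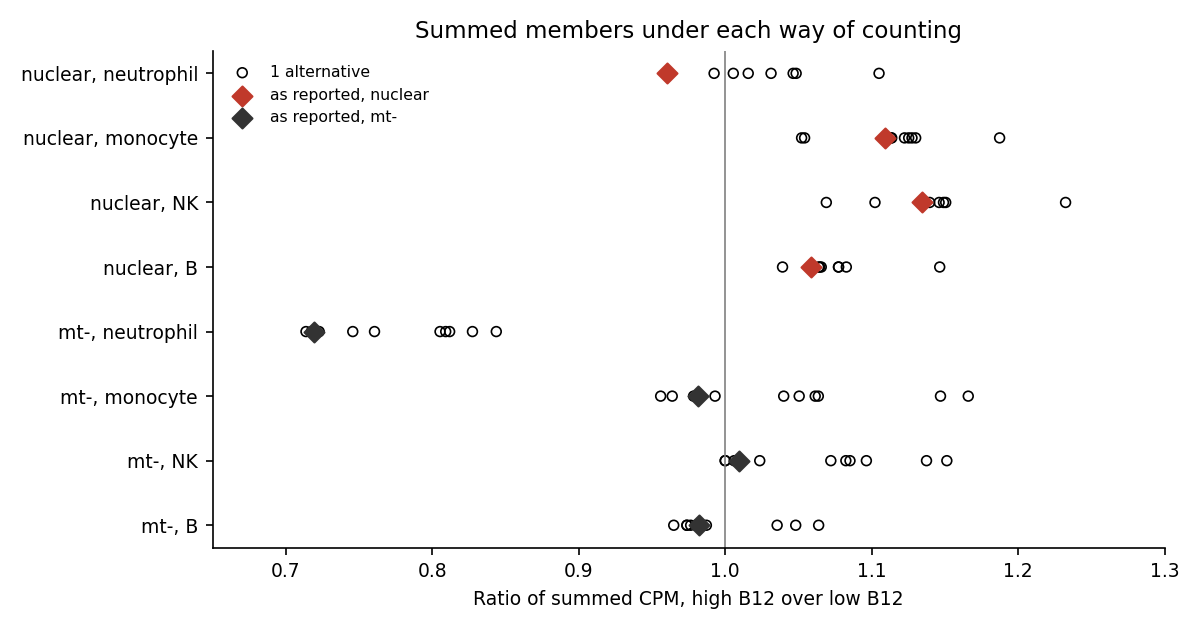
High-B12 over low-B12 ratio of summed CPM (x axis) of the nuclear and the mitochondrial genes in each class; diamonds are the values reported and each open circle is 1 of 10 other ways to choose cells and to scale counts. The neutrophil mitochondrial circles (0.714 to 0.844) are all below 1, and the monocyte, NK and B nuclear circles are all above 1.

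Empty droplets, here barcodes with 1 to 100 UMIs, carry free RNA of the suspension. They held 19711 CPM of the nuclear genes in the library with high B12 and 22544 CPM in that with low B12, and 19764 and 34180 CPM of the mitochondrial genes. S100a8 and S100a9 made up 9.08% of their UMIs in the library with high B12 and 3.47% in that with low B12. The mitochondrial level of free RNA thus differed between libraries in the same direction as that of neutrophils, and its part in the neutrophil ratio was not tested.

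The tissue-restricted isoforms had low levels. Cox8b, Cox8c and Ndufa4l2 had 0 UMIs in both libraries, and Cox4i2, the lung form of subunit 4, had 0 to 2 UMIs per class. Cox6a2, the heart and muscle form of subunit 6a, had 9.23 CPM in high-B12 and 6.45 CPM in low-B12 NK cells and 3.30 and 1.89 CPM in B cells. It had 0 UMIs in neutrophils, which allows up to 0.178 CPM in high-B12 cells and 0.495 CPM in low-B12 cells, and empty droplets held 2.32 and 3.77 CPM, so that NK cells alone stood above the empty droplets in both libraries. Cox6b2, known as the testis form of subunit 6b, had 171 UMIs or 15.5 CPM in high-B12 and 201 UMIs or 12.6 CPM in low-B12 monocytes, against 11.6 and 9.96 CPM in empty droplets. It had at most 7.59 CPM in the other classes. Its ubiquitous counterpart Cox6b1 had 454 and 407 CPM in the same monocytes. Cox7a1, the heart form of subunit 7a, was at 2.38 CPM or less in each class.

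Other genes of the pathway were taken from lists of assembly factors, electron carriers, mitochondrial RNA metabolism, the citric acid cycle, regulators and mitoribosomal proteins. The mitoribosomal proteins, which translate the mt- transcripts, followed the nuclear subunits, with ratios of 1.13 in monocytes, 1.11 in NK cells, 1.09 in B cells and 0.982 in neutrophils. In monocytes 14 of 78 of them were higher by at least 1.2-fold and 2 lower, in NK cells 18 of 73 higher and 2 lower, in B cells 8 of 77 higher and 2 lower, and in neutrophils 1 of 70 higher and 26 lower. Over all measured genes the shares higher and lower by that much were 8.98% and 27.7% in monocytes, 9.02% and 31.4% in NK cells, 8.92% and 28.9% in B cells, and 5.48% and 41.9% in neutrophils. Assembly factors had ratios of 1.07, 1.10, 0.996 and 0.971 in the same order of classes. The citric acid cycle enzymes were at 0.990, 0.970, 1.03 and 0.854, with 8 of 12 measured genes lower by at least 1.2-fold in neutrophils, where 41.9% of all measured genes were. Among them Suclg1, a subunit of succinyl-CoA synthetase, was higher in the other classes, at 59.1 against 48.8 CPM in monocytes, 90.4 against 66.5 CPM in NK cells and 78.3 against 62.2 CPM in B cells. The nuclear regulators lay below 1 in every class, at 0.904, 0.838, 0.813 and 0.913. Nrf1 had 72.8 CPM in high-B12 against 111 CPM in low-B12 NK cells, and Gabpb2, a partner subunit of GABP, had 59.0 against 81.8 CPM in B cells. Regulators and nuclear subunits thus did not lie on the same side of 1 in monocytes, NK cells and B cells. The median of all genes lay below 1 too, at a log2 ratio of -0.10 in monocytes, -0.12 in NK cells and -0.12 in B cells. The median regulator was at -0.14, -0.18 and -0.28 in the same order. In neutrophils the median of all genes was -0.20 and that of the regulators -0.14. Of electron carriers and feeders Gpd2, which passes electrons from glycerol 3-phosphate to ubiquinone, was lower in each class, among them 69.3 against 87.6 CPM in neutrophils and 62.9 against 90.2 CPM in NK cells. The uncoupling protein gene Ucp2 had 263 CPM in high-B12 and 335 CPM in low-B12 neutrophils. Genes of mitochondrial transcription and of mitophagy had sums between 0.930 and 1.06 of the low-B12 level in all classes.

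Cells with over 10% mitochondrial UMIs were poor in nuclear respiratory chain transcripts. They had a nuclear member level of 5255 CPM over UMIs other than mt-, against 15728 in other cells of the high-B12 library, and 5271 against 16223 in the low-B12 library. They were also shallow, with a median of 1389 against 4327 UMIs and 1466 against 5695 UMIs in these libraries. Most belonged to no class, and among B cells they were 49 of 752 (6.52%) in the high-B12 and 62 of 1947 (3.18%) in the low-B12 library. In those B cells the nuclear level was 6387 CPM in high-B12 cells and 6408 in low-B12 cells, against 15507 and 14589 in other B cells. A high mitochondrial share in these libraries thus came without a matching level of the nuclear subunits.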

How the data were processed

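The authors deposited raw UMI counts per gene and barcode, made with Cell Ranger 4 per the file headers, whereas version 2.1.1 is given in the submitters' processing notes. Barcodes and gene IDs with symbols are deposited beside each matrix. The genome build is not given in the sources used here. The matrices hold all barcodes, 1053362 for high B12 and 1256219 for low B12, with 46994991 and 48884220 UMIs, of which cells held 92.4% and 92.2%. All 98 member IDs occur in GENCODE M21, whose GRCm38 positions are given.

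UMIs were summed per class and library and divided by the class total (CPM). A 3′ method counts transcript ends, so CPM was not divided by length. Ratios carry exact conditional binomial intervals at 95%, checked on simulated data. A gene counted as measured with at least 100 UMIs over both sides, and as higher or lower at 1.2-fold. No test was made between conditions, since each has 1 library. Scrublet called 376 (5.17%) high-B12 and 481 (7.06%) low-B12 cells as doublets, which were kept. Python 3.11.15, numpy 2.4.6, scipy 1.17.1 and scanpy 1.11.5 were used.

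Genes named were all mt- genes, isoform families, Sdha to Sdhd, and per class and complex up to 3 members with the largest ratio at 100 CPM or more whose interval excludes 1. For neutrophil over monocyte up to 3 per complex with the largest mean log2 ratio were named. Of other lists up to 3 genes at 50 CPM or more qualified, and which of these to describe was decided with the values in view, as it was for Ndufv3, Ndufb7, Cyc1, Cycs and AA467197. Members, lists and rules were chosen with earlier results of these data known. Alternatives covered the cell filter, class overlap, doublets, scaling, depth and thresholds. Some results on single members are not reported here.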

Additional observations from a re-analysis of the deposited data

Results flagged for a closer look

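The nuclear and the mitochondrial sum lay on different sides of 1 in different classes, and this difference between classes was not tested because each library is a single sample. The high-B12 over low-B12 ratio of the nuclear sum was 1.11 in monocytes, 1.13 in NK cells and 1.06 in B cells, against 0.960 in neutrophils, where the side of 1 changes with the scaling. The ratio of the mitochondrial sum was 1.01 in NK cells, against 0.719 in neutrophils, 0.981 in monocytes and 0.982 in B cells.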

How the results depend on the processing

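Ratios are high-B12 over low-B12, in the order neutrophil, monocyte, NK and B where 4 are given. In cells of exactly 1 class the nuclear ratios were 1.01, 1.13, 1.15 and 1.08 and the mitochondrial ratios 0.809, 1.06, 1.08 and 0.974. Without called doublets the nuclear ratio was 0.992 in neutrophils and 1.08 in B cells, and the mitochondrial ratio 1.04 in monocytes, 1.07 in NK and 0.976 in B cells. Per UMI other than mt-, S100a8 and S100a9 the nuclear ratio was 1.02 in neutrophils, 1.12 in monocytes and 1.15 in NK cells, and the mitochondrial ratios were 0.761, 0.993, 1.02 and 0.987. Scaled by the median gene the nuclear ratios were 1.10, 1.19, 1.23 and 1.15 and the mitochondrial ratios 0.827, 1.05, 1.10 and 1.06. With cells weighted alike they were 1.03, 1.05, 1.10 and 1.04 for nuclear and 0.805, 1.17, 1.14 and 1.04 for mitochondrial genes. Thinned to 500 UMIs per cell, the nuclear ratio was 1.05 in neutrophils, 1.05 in monocytes and 1.07 in NK cells, and the mitochondrial ratios were 0.812, 1.15, 1.15 and 1.05. Stricter class limits gave a nuclear ratio of 1.13 in monocytes and mitochondrial ratios of 0.746, 0.964 and 1.00 in neutrophils, monocytes and NK cells. At most 10% mitochondrial UMIs gave mitochondrial ratios of 0.956 in monocytes, 1.00 in NK and 0.965 in B cells. Cells of exactly 1 class with the scaling per other UMI, an alternative chosen after seeing the data, gave nuclear ratios of 1.05, 1.13, 1.15 and 1.08 and mitochondrial ratios of 0.844, 1.06, 1.09 and 0.974. A minimum of 1000 UMIs moved none of these sums beyond its interval.

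The mean log2 ratio of neutrophil over monocyte was -0.94 for nuclear and -1.68 for mitochondrial genes in cells of exactly 1 class, -0.40 and -0.98 per other UMI, -0.11 and -0.69 scaled by the median gene, and -0.92 and -1.84 thinned. With cells weighted alike the mitochondrial value was -1.84, and in cells of exactly 1 class per other UMI the nuclear value was -0.51. The cause of these shifts was not tested. Lower neutrophil genes at 1.2-fold numbered 17 of 78 nuclear genes, against 5 in cells of exactly 1 class, 9 without doublets, 7 per other UMI and 2 scaled by the median gene, where the shares over all genes were 41.9%, 29.3%, 34.3%, 31.3% and 20.2%. Values of single genes were set against only 2 other settings, at most 10% mitochondrial UMIs and the scaling per other UMI, under which 28 moved beyond their interval and 696 did not. No paired analysis was possible because each condition has 1 library, and no library could be left out. Depth limits the rare isoforms and mt-Nd6.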
